A study of Homo sapiens with 11 samples.

Results

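The Sox2 line was compared directly with the Klf4 line, 2 libraries against 2, over every gene with a value of 10 or more in at least 2 of the 11 libraries of the series. Of 60605 features listed, 18828 met this minimum, and all of them were kept whatever their difference. All 11 libraries were made from polyadenylated RNA of ARPE-19, an established human cell line of retinal pigment epithelium (RPE), after 4 days of expression of an introduced open reading frame from stably modified cells. The Sox2 libraries came from cells given Sox2 and the Klf4 libraries from cells given Klf4, and the contrast itself used no library of the GFP, Oct4 or OSK (Oct4, Sox2 and Klf4 together) lines. Those 7 libraries entered the shared estimate of spread and also counted toward the minimum that decided which genes were tested. The promoter driving each reading frame, its species, and whether a line is 1 clone are not given in the sources used here. The series concerns candidate oxidative effectors in RPE cells, and the direct contrast asks how the transcriptomes of cells given either single factor differed from each other.

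SOX2 is a transcription factor with a high-mobility-group domain that bends DNA at short CNTTGT-like sites. It is known for its part in pluripotent and neural progenitor cells and, in the embryonic eye, in the neural retina next to the pigment epithelium. KLF4 is a zinc-finger factor that binds GC-rich and CACCC sites and is known for the terminal differentiation of barrier epithelia such as epidermis and for restraint of proliferation in some tissues. The RPE is a pigmented epithelium that nourishes photoreceptors and recycles retinoid.

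Recovered read totals of the 4 compared libraries ran from 15053300 to 19791775, with at least 1 read on 25853 to 26971 features. Outside the contrast, GFP replicate 1 had reads on 42956 features and OSK replicate 1 on 32493. Both entered the estimate of spread and the minimum for testing. With both left out of the fit, over the same genes tested, 8202 genes differed, against 7673 with them. Mitochondrial transcripts took 5.05% and 5.38% of counts in the Sox2 replicates and 6.21% and 6.0% in the Klf4 replicates, and the part of this difference in the results below was not tested. The labelled cell type was checked against RPE markers. MITF, the master regulator of pigment cells, had 789.9 and 748 in the Sox2 replicates and 2343 and 2515 in the Klf4 replicates, in normalised counts (the unit of all values below, reads divided by 1 factor per library). OTX2 had 1241 and 1175 against 2372 and 2267, and the simple-epithelial keratin gene KRT8 had 14090 and 14480 against 13570 and 12770. RPE65, the isomerase that defines mature RPE, was at or near 0, with 0 in 3 of the 4 libraries and 4.63 in Klf4 replicate 1. The labels do not say that replicates are separate cultures, so p-values measure the spread between these libraries, which may be technical.

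The introduced genes matched the labels. SOX2 had 29110 and 29140 normalised counts in Sox2 replicates 1 and 2 and 136 and 184 in Klf4 replicates 1 and 2. KLF4 had 101 and 78.8 in the Sox2 replicates and 24200 and 22140 in the Klf4 replicates. For each gene the pair of libraries labelled for it lay far above the other pair, with no overlap. The counts do not separate introduced from endogenous copies. The species of the introduced reading frames is not given in the sources used here, and the submitters' processing notes name both a human and a mouse build, so reads of the introduced genes may be counted only in part. The log2 difference, written throughout as Sox2 minus Klf4 on the log2(value + 1) scale, was 7.51 for SOX2 (SE 0.20; limma adjusted p = 1.52e-13) and -8.0 for KLF4 (SE 0.31; limma adjusted p = 1.32e-11). POU5F1, the gene of Oct4, which neither line received, had 282 and 174 in the Sox2 replicates and 293 and 446 in the Klf4 replicates, and near-identical pseudogene copies make these low values uncertain. Its difference of -0.70 passed (SE 0.18; limma adjusted p = 0.00508), but did not pass without Sox2 replicate 2 (-0.36; limma adjusted p = 0.124), without Klf4 replicate 2 (-0.40; limma adjusted p = 0.111) or with only the 4 compared libraries in the fit (limma adjusted p = 0.11).

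The lines differed across much of the transcriptome. Of 18828 genes tested, 7673 (40.8%) had a limma adjusted p under 0.05. Of these, 3780 (20.1% of genes tested) were higher in the Sox2 line and 3893 (20.7%) were higher in the Klf4 line. A log2 difference of at least 1 in size together with this threshold was met by 3064 genes (16.3%), 1357 higher in Sox2 and 1707 higher in Klf4. The 4 libraries did not overlap between the lines for 13327 genes (70.8%), so absence of overlap alone separates few genes from the rest. The median log2 difference over all genes tested was -0.02, and the median size was 0.42, or 0.78 among genes that passed.

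The split of calls was nearly even, but the largest differences were mostly on the Klf4 side. A log2 difference of at least 2 was met by 473 genes higher in Sox2 and 782 higher in Klf4. For a difference of at least 4 the counts were 51 and 175, and for at least 5 they were 20 and 71. Among genes with a mean of at least 100 in the higher line, 21 that were higher in Klf4 had at most 3 reads in each Sox2 library, and 2 that were higher in Sox2 had at most 3 reads in each Klf4 library. Counts at large sizes depend on the pseudocount, and with 5 in place of 1 those at a difference of at least 4 were 22 and 87. The share of genes called rose with level, from 16.9% of genes with a mean under 50 to 62.8% of genes with a mean of 1000 or more. In bulk RNA, fewer cells of a type and less RNA per cell cannot be told apart.

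**Figure D1:**
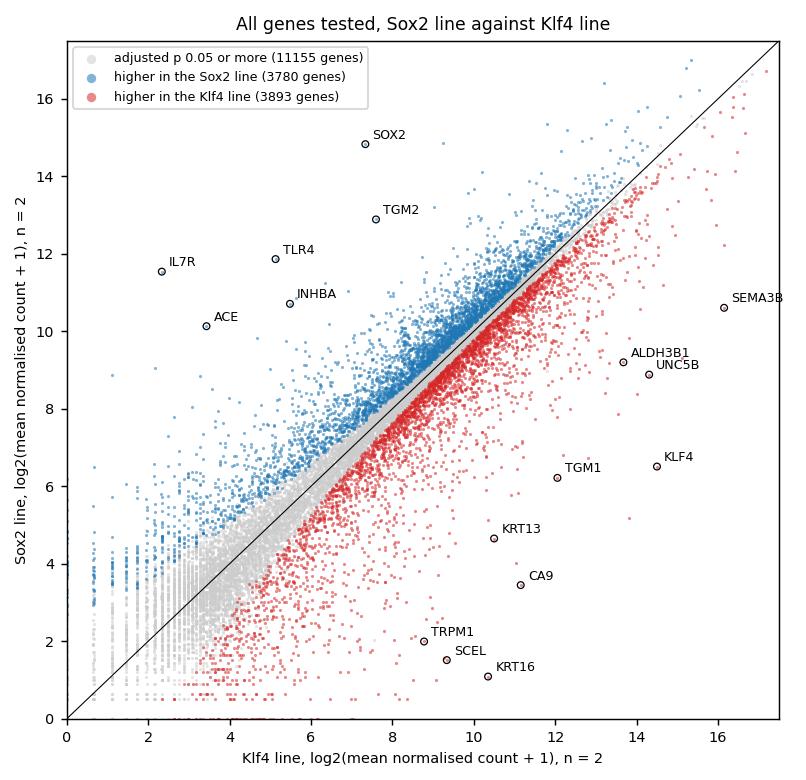
Mean normalised count of each of the 18828 genes tested, as log2(mean + 1), in the Sox2 line (vertical axis, 2 libraries) against the Klf4 line (horizontal axis, 2 libraries). Blue points are the 3780 genes higher in the Sox2 line, red points the 3893 genes higher in the Klf4 line and grey points genes that did not pass. More genes lie far below the diagonal (Klf4 side) than far above it.

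The 12 genes furthest toward the Sox2 line included receptors, enzymes and secreted regulators of matrix and signalling. IL7R, the interleukin-7 receptor chain known from lymphocytes, had 3192 and 2754 normalised counts in the Sox2 replicates and 4.63 and 3.43 in the Klf4 replicates (log2 difference 9.21, SE 0.84, limma adjusted p = 2.13e-07). Toll-like receptor gene TLR4, which encodes the sensor of bacterial lipopolysaccharide, had 3967 and 3476 against 37 and 30.9 (log2 difference 6.74, SE 0.27, limma adjusted p = 1.46e-11). Both genes were high in both Sox2 libraries and under 40 in both Klf4 libraries. A pair of calcium homeostasis modulator genes that encode large-pore membrane channels followed the same pattern. CALHM4 had 435 and 506 in the Sox2 replicates and 1 read in each Klf4 library, at least 136-fold higher in Sox2 (limma adjusted p = 1.09e-06, with the bound computed at 3 reads per library). CALHM5 had 509 and 554 in the Sox2 replicates and 3 reads in each Klf4 library, at least 154-fold higher (limma adjusted p = 1.16e-07). CALHM4 and CALHM5 met the minimum for testing only through the Sox2 libraries, so they could be called on that side alone.

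ACE, the angiotensin-converting peptidase, had 729 and 1510 in the Sox2 replicates, which lay well apart, and 8.1 and 11.4 in the Klf4 replicates (log2 difference 6.63, SE 0.89, limma adjusted p = 1.75e-05). TGM2, tissue transglutaminase, which crosslinks matrix proteins, had 8434 and 6701 against 142 and 242 (log2 difference 5.33, SE 0.29, limma adjusted p = 5.82e-10). Both genes were higher in both Sox2 libraries than in either Klf4 library, which the choice of this group required. INHBA, the subunit of activin A, had 1565 and 1777 against 34.7 and 52.6 (log2 difference 5.25, SE 0.34, limma adjusted p = 3.51e-09). The glycine transporter gene SLC6A9 had 937 and 878 against 8.1 and 41.1 (log2 difference 5.54, SE 0.63, limma adjusted p = 2.89e-06), with the Klf4 replicates well apart from each other. The group also held FAM182A and FLJ16779, with log2 differences of 5.62 and 5.54.

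The 12 genes furthest toward the Klf4 line included several known from stratified and barrier epithelia. KRT16, a keratin of stressed and proliferating epidermis, had 1317 and 1289 normalised counts in the Klf4 replicates and 2.24 and 0 in the Sox2 replicates, at least 439-fold higher in Klf4 (limma adjusted p = 2.06e-06). Reads can be shared with near-identical keratin copies, and how the counting treated them is not given in the sources used here. SCEL, sciellin, a precursor of the cornified envelope, had 758 and 531 in Klf4 and 1.12 and 2.57 in Sox2, at least 217-fold higher in Klf4 (limma adjusted p = 1.64e-07). Both were near 0 in the Sox2 libraries and above 500 in the Klf4 libraries. TRIM29, a regulator expressed in squamous epithelia, was at least 123-fold higher, with 379 and 351 in the Klf4 replicates.

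Membrane and enzyme genes made up most of the others on the Klf4 side. CA9, a carbonic anhydrase known as a hypoxia marker, had 2792 and 1756 in the Klf4 replicates and 11.2 and 8.56 in the Sox2 replicates (log2 difference -7.68, SE 0.31, limma adjusted p = 2.02e-11). The metalloprotease gene ADAM33 was at least 207-fold higher in Klf4 (655 and 571), the lipid-flippase family gene ATP10B at least 109.9-fold (442 and 210.2) and the intracellular chloride channel gene CLIC3 at least 90.1-fold (297 and 238). The potassium channel gene KCNN4 was at least 67.1-fold higher (232 and 166). None of these 4 had more than 3 reads in a Sox2 library. SIGLEC1, a sialic-acid lectin known from macrophages, had 357 and 217 against 0 and 0.86, at least 96.8-fold higher (limma adjusted p = 4.07e-07). The leukocyte and macrophage markers PTPRC, CD3D, AIF1 and TYROBP were at 0 in both Klf4 libraries, and CD68 was at 2.31 and 0. Other myeloid markers were present in these libraries, with CSF1R at 288 and 163 in Klf4 and 48.2 and 66.8 in Sox2, and CD14, below the minimum for testing, at 6.94 and 4.57 in Klf4 and 3.37 and 1.71 in Sox2. The non-coding antisense RNA gene TARID, at -7.48, and KLF4 itself were also in the group, and for TARID the use of strand in counting is not given in the sources used here.

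**Figure D2:**
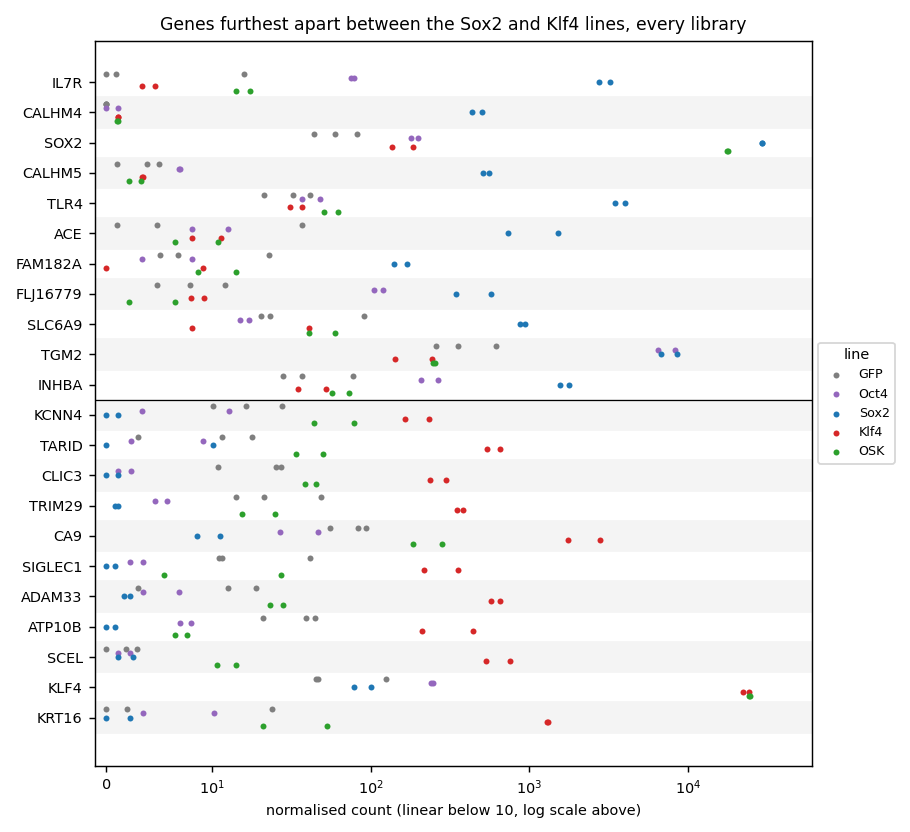
Normalised counts of 11 of the 12 genes furthest toward the Sox2 line (above the line) and 11 of the 12 furthest toward the Klf4 line (below it), 1 point per library, on an axis that is linear below 10 and logarithmic above. Genes were chosen so that the blue (Sox2) and red (Klf4) points do not overlap in a row, and the other lines are shown for position only.

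Upstream sequence is shown for the genes furthest apart on either side that have a single start site in the RefSeq table (GRCh38.p14), as the place where the sites of the delivered factors can be looked for. Each run is the 250 bases before the start, 5′ to 3′ on the gene's strand, with capitals marking CNTTGT (a core site of SOX factors) or GGGTG (the reverse complement of the CACCC core of KLF factors) on either strand. The regions are chr5:35856641-35856890 for IL7R, chr6:116511389-116511638 for CALHM5, chr13:77535456-77535705 for SCEL and chr9:35673678-35673927 for CA9, all on the plus strand.
IL7R: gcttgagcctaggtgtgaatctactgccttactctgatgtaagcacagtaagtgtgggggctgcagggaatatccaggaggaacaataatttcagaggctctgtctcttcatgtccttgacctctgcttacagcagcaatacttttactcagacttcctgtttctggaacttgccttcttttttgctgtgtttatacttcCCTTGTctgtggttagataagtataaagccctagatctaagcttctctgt
CALHM5: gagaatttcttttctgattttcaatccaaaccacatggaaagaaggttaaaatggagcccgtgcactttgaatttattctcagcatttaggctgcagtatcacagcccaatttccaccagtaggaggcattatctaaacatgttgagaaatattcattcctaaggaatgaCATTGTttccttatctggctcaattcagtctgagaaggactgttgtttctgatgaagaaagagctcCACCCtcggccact
SCEL: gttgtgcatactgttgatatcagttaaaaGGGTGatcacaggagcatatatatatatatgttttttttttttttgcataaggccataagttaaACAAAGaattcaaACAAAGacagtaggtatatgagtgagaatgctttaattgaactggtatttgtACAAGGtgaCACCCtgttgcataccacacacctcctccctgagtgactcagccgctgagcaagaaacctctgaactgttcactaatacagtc
CA9: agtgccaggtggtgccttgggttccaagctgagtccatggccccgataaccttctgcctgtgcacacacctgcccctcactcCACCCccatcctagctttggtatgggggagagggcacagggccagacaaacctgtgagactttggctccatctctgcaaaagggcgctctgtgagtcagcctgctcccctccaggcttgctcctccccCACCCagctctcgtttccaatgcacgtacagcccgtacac
The IL7R window held 1 SOX-type match and 0 KLF-type matches, and the CALHM5 window held 1 of each. SCEL, a gene on the Klf4 side, held 3 SOX-type and 2 KLF-type matches, and CA9 held 0 and 2. A match is a description of letters and not a site of binding.

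Over larger sets the SOX-type letters did not separate the 2 sides. Only genes with a single start site in the RefSeq table were searched. At a log2 difference of at least 2, these were 193 of 473 genes higher in Sox2 and 317 of 782 higher in Klf4. Of all genes tested they were 8666 of 18828. CNTTGT on either strand was present in 28% of 193 promoters of genes higher in Sox2 by a log2 difference of at least 2 and in 28.4% of 317 promoters of genes higher in Klf4 by that size, against 22.3% of 8666 promoters of all genes tested and 31.8% of 22114 promoters in the table. GGGTG was present in 57.0% of the first set, 66.9% of the second, 58.6% of genes tested and 53% of the table. The longer KLF-type letters GGGNGTGG, which can overlap GGGTG, were present in 23.3%, 23.0%, 19.2% and 14.9%. GC content of the 4 sets was 62.3%, 63.7%, 64.4% and 56.3%, and its part in these shares was not tested.

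Gene lists were then read by role, with the share of all genes that passed (20.1% higher in Sox2 and 20.7% higher in Klf4) and the median of all genes (-0.02) as the comparison. These shares pool all levels, and the lists were not matched for level. The share called was 16.9% of genes with a mean under 50 and 62.8% of genes with a mean of 1000 or more. The genes of squamous and cornified epithelium that passed were higher in the Klf4 line. Of 51 listed genes of squamous and cornified epithelium, 21 were measured above the minimum. Of these, 13 were higher in Klf4 and 0 in Sox2, and 8 did not pass, with a median of -2.56. KRT13, a keratin of mucosal squamous epithelium, had 1422 and 1469 in the Klf4 replicates and 22.4 and 25.7 in the Sox2 replicates (log2 difference -5.85, SE 0.25, limma adjusted p = 3.11e-11). TGM1, the transglutaminase that crosslinks the cornified envelope, had 4407 and 4088 against 65.1 and 81.3 (log2 difference -5.85, SE 0.19, limma adjusted p = 1.8e-12). Both pairs of libraries were well separated. KRT14, a basal epidermal keratin, was at least 43.5-fold higher in Klf4 (111 and 147, against 0 in both Sox2 libraries), and KRT4 at least 49.5-fold (188 and 105). KRT14, KRT15 and TGM5, all among the 13, met the minimum only because they were high in the Klf4 libraries. Such genes can be counted on that side alone, so the counts are a description. Over all lists, 594 genes passed, and 10 of them met the minimum only through the line where they were higher, 5 on either side. Over all genes tested, the same held for 138 of the 7673 that passed.

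The programme of stratified epithelium was measured only in part. Late cornified-envelope genes LORICRIN, SPRR2A and SPRR3 and the suprabasal keratin gene KRT1 were at 0 in all 4 libraries, and the basal keratin gene KRT5 had at most 1.16. Simple-epithelial KRT8 (0.12; limma adjusted p = 0.223) and KRT18 (-0.02; limma adjusted p = 0.859) did not pass. Among 40 measured genes of desmosomes and epithelial junctions, 10 were higher in Klf4, 7 higher in Sox2 and 23 did not pass, with a median of -0.21. The tight-junction gene CGN (cingulin) had 568 and 588 in the Klf4 replicates and 64 and 71.9 in the Sox2 replicates (log2 difference -3.07, SE 0.18, limma adjusted p = 9.46e-10). ELF3, an epithelial transcription factor, had 159.6 and 152 against 12.3 and 12, and MARVELD3, a tight-junction protein gene, had 56.7 and 82.3 against 12.3 and 5.99. In these 3 genes the Klf4 libraries lay above the Sox2 libraries. On the Sox2 side were EHF, another epithelial transcription factor, with 92 and 89 against 3.47 and 5.71 in Klf4, and the protease inhibitor gene SPINT2 with 2934 and 3278 against 687 and 678. EHF met the minimum only through the Sox2 libraries. CDH1, E-cadherin, was also higher in Sox2 (log2 difference 0.66, SE 0.18, limma adjusted p = 0.00817), but did not pass without Klf4 replicate 1 (0.55; limma adjusted p = 0.0794) or without Sox2 replicate 1 (0.63; limma adjusted p = 0.0559).

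Basement membrane genes and their receptors went both ways. Of 31 measured integrins, laminins and related genes, 11 were higher in Sox2, 12 in Klf4 and 8 did not pass. ITGB7, higher in Klf4, met the minimum only through the Klf4 libraries. LAMA3 and LAMB3, chains of the epithelial laminin-332, were higher in Klf4. LAMA3 had 15070 and 13580 in the Klf4 replicates and 816 and 984 in the Sox2 replicates (log2 difference -4.0, SE 0.12, limma adjusted p = 5.83e-13), and LAMB3 had 282 and 273 against 6.73 and 8.56 (log2 difference -5.02, SE 0.43, limma adjusted p = 1.19e-07). Their partner ITGB4, the integrin chain of hemidesmosomes, was higher in Klf4 too (-2.79). The integrin gene ITGA4, a receptor for fibronectin, had 2049 and 1641 in the Sox2 replicates and 42.8 and 54.9 in the Klf4 replicates (log2 difference 5.21, SE 0.21, limma adjusted p = 1.49e-11), and the collagen receptor gene ITGA2 had 104 and 89 against 10.4 and 14.8. Laminin LAMB1 (2.31) and nidogen NID1 (2.36) were higher in Sox2.

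Mesenchymal and contractile genes lay mostly on the Sox2 side. Of 39 measured mesenchymal regulators and markers, 19 were higher in Sox2, 6 in Klf4 and 14 did not pass, with a median of 0.70 (0.66 with genes near 0 in 1 line set at their bound). FN1, fibronectin, had 47760 and 35720 in the Sox2 replicates and 2798 and 4301 in the Klf4 replicates (log2 difference 3.57, SE 0.18, limma adjusted p = 3e-10). CCN2, a matricellular growth factor, had 86900 and 86920 against 8748 and 10020 (log2 difference 3.21, SE 0.16, limma adjusted p = 2.15e-10), and TGFBI, a matrix protein gene named for its induction by TGF-beta, had 38670 and 36350 against 4211 and 5843 (log2 difference 2.92, SE 0.21, limma adjusted p = 1.76e-08). No Klf4 library reached a Sox2 library in any of the 3. FAP, a protease of activated fibroblasts, had 655 and 438 against 55.5 and 105. The intermediate filament gene VIM differed less (log2 difference 0.84, SE 0.13, limma adjusted p = 6.04e-05). Regulators were mixed in size, with TWIST1 at 1.32 and ZEB2 at 0.66, while SNAI1, with 5.61 and 24 against 0 and 5.71, did not pass (limma adjusted p = 0.155). BGN, biglycan, had 0 in both Sox2 libraries and 24.3 and 25.1 in Klf4, and it met the minimum only through the Klf4 libraries.

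Genes of serum response factor (SRF) and the contractile cytoskeleton had 23 of 33 measured members higher in Sox2, 2 higher in Klf4 and 8 that did not pass, with a median of 0.96. TAGLN, transgelin of smooth muscle, had 12300 and 12130 in the Sox2 replicates and 844 and 996 in the Klf4 replicates (log2 difference 3.73, SE 0.26, limma adjusted p = 8.79e-09). ACTA2, smooth-muscle actin, had 1753 and 2106 against 268 and 250.2 (log2 difference 2.88, SE 0.30, limma adjusted p = 1.16e-06). VCL, vinculin of focal adhesions, had 29020 and 32900 against 6408 and 6423, and TPM1, tropomyosin, had 40750 and 43190 against 9442 and 9893. In all 4 genes each Sox2 library exceeded each Klf4 library. LMOD1 (2.53), MYL9 (1.71) and SRF itself (0.74) passed in the same direction, and FLNC (-1.25) and SMTN (-1.15) in the other.

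Of 30 measured collagens, 12 were higher in Sox2, 6 in Klf4 and 12 did not pass. COL14A1, higher in Sox2, met the minimum only through the Sox2 libraries. The fibrillar collagen gene COL1A1 had 8369 and 7029 in the Sox2 replicates and 960 and 1357 in the Klf4 replicates (log2 difference 2.75, SE 0.23, limma adjusted p = 6.48e-08), and COL5A2 had 3863 and 2928 against 967 and 1099. COL4A3, a chain of the basement membrane network, had 6838 and 7290 in Klf4 and 1422 and 1230 in Sox2 (log2 difference -2.42, SE 0.08, limma adjusted p = 2.24e-12), whereas COL4A1, another basement membrane chain, was higher in Sox2 (1.04). COL8A2, a chain known from Descemet's membrane, had 1500 and 1089 against 28.1 and 39.4 (log2 difference -5.22, SE 0.19, limma adjusted p = 7.17e-12). The collagen genes thus went both ways.

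The TGF-beta ligand genes TGFB1 and TGFB2 were higher in Sox2, while more genes of bone morphogenetic protein (BMP) signalling were higher in Klf4 than in Sox2. Of 23 measured TGF-beta pathway genes, 12 were higher in Sox2, 4 in Klf4 and 7 did not pass, with a median of 0.57. The ligand gene TGFB1 had 3984 and 3904 in the Sox2 replicates and 660.4 and 873 in the Klf4 replicates (log2 difference 2.38, SE 0.16, limma adjusted p = 5.23e-09), and TGFB2 had 3060 and 2794 against 1094 and 1184. LTBP1, which stores latent TGF-beta in matrix, had 3021 and 2905 against 423 and 481 (log2 difference 2.71, SE 0.10, limma adjusted p = 3.98e-12). The co-receptor gene TGFBR3 was opposite, with 2849 and 2958 in Klf4 and 251 and 170.4 in Sox2 (log2 difference -3.80, SE 0.17, limma adjusted p = 7.37e-11). PMEPA1, a feedback inhibitor induced by the pathway, had 7580 and 6748 in Sox2 and 2552 and 3363 in Klf4.

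Of 29 measured BMP and ID genes, 15 were higher in Klf4, 8 in Sox2 and 6 did not pass, with a median of -0.51. ID1, an inhibitor of basic helix-loop-helix factors and a direct BMP target, had 4127 and 4243 in the Klf4 replicates and 198 and 242 in the Sox2 replicates (log2 difference -4.25, SE 0.10, limma adjusted p = 5.33e-14). ID2 had 3198 and 3083 against 605 and 592 (log2 difference -2.39, SE 0.08, limma adjusted p = 2.24e-12), and ID4 had 7473 and 6821 against 1376 and 1538 (log2 difference -2.29, SE 0.08, limma adjusted p = 6e-12). These 3 ID genes were higher in each Klf4 library than in either Sox2 library. ID3 was also higher in Klf4 (-1.49). The ligand genes BMP2 (1024 and 1020 against 219 and 247) and BMP4 (2221 and 1997 against 853 and 895) were also higher in Klf4. GDF15, a distant ligand of the TGF-beta family, had 34.7 and 69.7 in Klf4 and 13.5 and 5.99 in Sox2 (log2 difference -2.32, SE 0.44, limma adjusted p = 0.000428). GDF6, a BMP-family ligand of the developing eye, had 147 and 178 in Sox2 and 10.4 and 8 in Klf4 (log2 difference 4.01, SE 0.41, limma adjusted p = 9.21e-07), and the antagonist gene FST had 165 and 242 against 31.2 and 48.

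**Figure D3:**
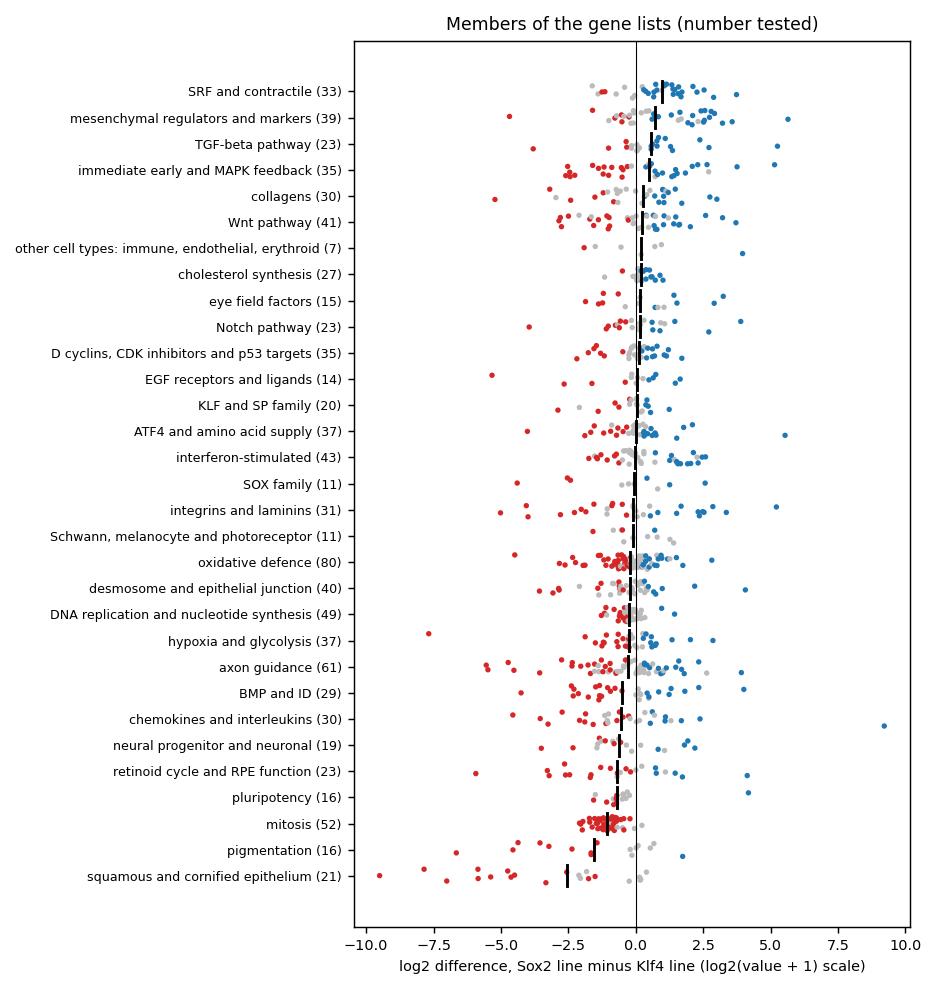
Log2 difference (Sox2 minus Klf4) of the measured members of each of the 31 gene lists, 1 point per gene, without points for SOX2 and KLF4. The black bar is the list median and the number measured is in brackets, both with SOX2 and KLF4 included. Blue points passed on the Sox2 side, red points passed on the Klf4 side and grey points did not pass. Medians run from -2.56 for squamous epithelium to 0.96 for SRF and contractile genes.

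Most pigmentation and RPE function genes that passed were lower in the Sox2 line. Of 16 measured pigmentation genes, 9 were higher in Klf4, 1 in Sox2 and 6 did not pass, with a median of -1.55. TYR, tyrosinase, the rate-limiting enzyme of melanin synthesis, had 402 and 217 in the Klf4 replicates and 8.98 and 19.7 in the Sox2 replicates (log2 difference -4.37, SE 0.40, limma adjusted p = 2.3e-07). PMEL, the fibril protein of melanosomes, had 1356 and 1184 against 101 and 179.8 (log2 difference -3.22, SE 0.22, limma adjusted p = 6.08e-09), and TYRP1 had 2057 and 1204 against 119 and 149 (log2 difference -3.55, SE 0.21, limma adjusted p = 1.3e-09). TRPM1, the host gene of a pigment-cell microRNA and a MITF target, was at least 147-fold higher in Klf4, with 620 and 255 against 3.37 and 2.57. MITF differed by -1.66 (SE 0.08; limma adjusted p = 1.9e-10). The GFP libraries had 349.6, 513 and 578 for TYR, above both Sox2 libraries, and 4094, 5281 and 6067 for PMEL, above all 4 compared libraries. MYO5A, a motor that carries melanosomes, was higher in Sox2 (1.74).

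Of 23 measured genes of the retinoid cycle and RPE function, 13 were higher in Klf4, 5 in Sox2 and 5 did not pass, with a median of -0.68. SERPINF1, the antiangiogenic factor PEDF secreted by RPE, had 1092 and 596 in the Klf4 replicates and 68.4 and 98.5 in the Sox2 replicates (log2 difference -3.28, SE 0.25, limma adjusted p = 2.32e-08). TIMP3, a metalloprotease inhibitor of Bruch's membrane, had 65730 and 60990 against 7013 and 6634 (log2 difference -3.21, SE 0.08, limma adjusted p = 1.24e-13). The retinol dehydrogenase gene RDH5 had 512 and 412 against 77.4 and 71.9 (log2 difference -2.61, SE 0.21, limma adjusted p = 4.28e-08). In all 3, both Klf4 libraries lay above both Sox2 libraries. The amino-acid transporter gene SLC6A20 was at least 52.8-fold higher in Klf4 (215 and 98.3 against 1.12 and 1.71), and VEGFA, the angiogenic factor of RPE, had 4637 and 3765 against 1239 and 1354. The phagocytosis receptor gene MERTK was higher in Sox2 (1.73).

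Eye field factors split evenly, with 5 of 15 measured genes higher on either side and 5 that did not pass. VAX1, counted on the Sox2 side, met the minimum only through the Sox2 libraries, so it could be counted on that side alone. The Sox2-side count was 3 without Klf4 replicate 1 or without Sox2 replicate 2. LHX2 had 1740 and 1998 in the Klf4 replicates and 765 and 854 in the Sox2 replicates (log2 difference -1.20, SE 0.09, limma adjusted p = 1.85e-08), SIX3 had 3706 and 3645 against 1582 and 1547 (log2 difference -1.23, SE 0.07, limma adjusted p = 5.59e-10), and RAX had 59 and 54.9 against 20.2 and 22.3. Higher in Sox2 were SIX4 (282 and 284 against 93.7 and 102) and OTX1 (84.2 and 93.3 against 30.1 and 35.4). PAX6, a master factor of eye development, had 3156 and 3160 against 2907 and 2962, a difference of 0.11 that did not pass (limma adjusted p = 0.261).

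**Figure D4:**
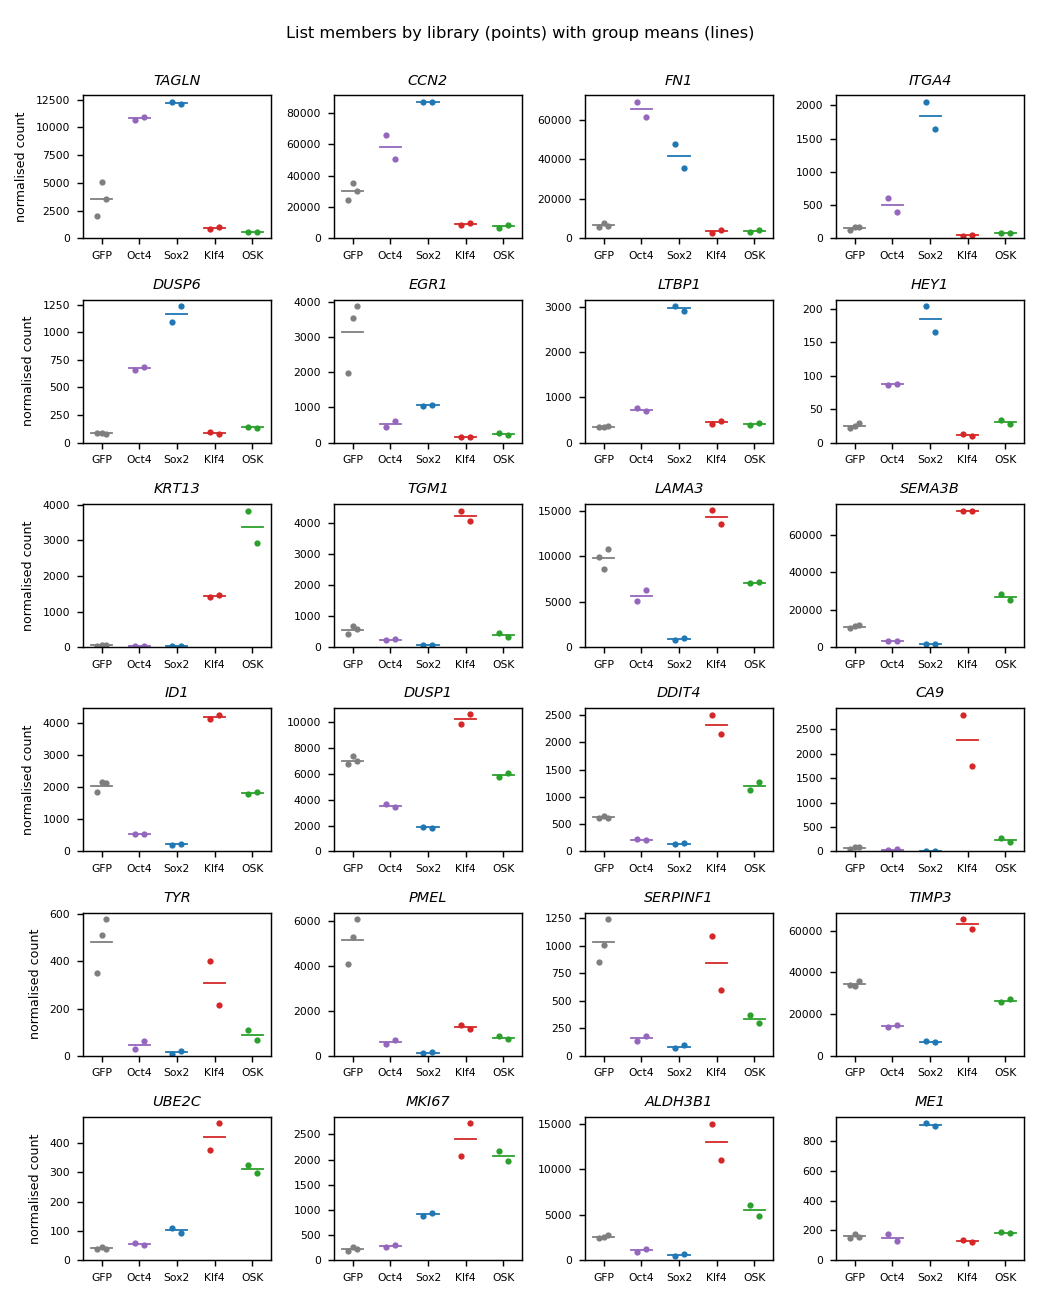
Normalised counts of 24 list members in every library, with 1 panel per gene on its own linear axis from 0, points for libraries and lines for group means. The upper rows (TAGLN to HEY1) show genes higher in the Sox2 libraries than in the Klf4 libraries, and the lower rows, ME1 excepted, genes higher in the Klf4 libraries.

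Relatives of the delivered factors differed in both directions. Of 11 measured SOX genes, 4 were higher in Sox2 and 3 in Klf4. The 4 include SOX2 itself, whose direction was set by the design. SOX9, a factor of RPE and of epithelial progenitors, had 4260 and 3891 in the Klf4 replicates and 707 and 694 in the Sox2 replicates (log2 difference -2.54, SE 0.09, limma adjusted p = 3.35e-12), and SOX8, of the same subgroup, had 5493 and 4980 against 199 and 307 (log2 difference -4.40, SE 0.20, limma adjusted p = 8.2e-11). The third gene of that subgroup, SOX10, was low in all 4 libraries (30.1 and 25.1 against 2.24 and 7.71) and did not keep its call in 7 alternatives. SOX5 (172 and 168 against 82.1 and 60.6) and SOX6 (167 and 213 against 44 and 21.7), of the SOXD subgroup, were higher in Sox2. Of 20 measured KLF and SP genes, 6 were higher in Klf4, 5 in Sox2 and 9 did not pass. The 6 include KLF4 itself, again set by the design. KLF3, a repressor of the family, had 6783 and 6973 in the Klf4 replicates and 940.2 and 916 in the Sox2 replicates (log2 difference -2.89, SE 0.07, limma adjusted p = 1.24e-13), while KLF7 had 2180 and 2284 in Sox2 and 895 and 999 in Klf4 (log2 difference 1.24, SE 0.08, limma adjusted p = 1.98e-09).

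Among pluripotency genes, few calls held in every alternative. Of 30 listed, 16 were measured, of which 6 were higher in Klf4, 1 in Sox2 and 9 did not pass. The Klf4-side count was 2 without Klf4 replicate 1 or without Sox2 replicate 2, and LIN28A, LIN28B, TDGF1, TRIM71 and POU5F1 each lost their call in at least 1 alternative. DNMT3B, the de novo DNA methyltransferase, had 308 and 288 in the Klf4 replicates and 184 and 176 in the Sox2 replicates (log2 difference -0.72, SE 0.16, limma adjusted p = 0.00172). LEFTY2, a secreted inhibitor of Nodal, had 118 and 121 in the Sox2 replicates and 6.94 and 4.57 in the Klf4 replicates (log2 difference 4.18, SE 0.71, limma adjusted p = 0.000187), and met the minimum only through the Sox2 libraries.

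Most mitotic genes were higher in the Klf4 line. Of 52 measured genes, 46 were higher in Klf4, 0 in Sox2 and 6 did not pass, with a median of -1.06. MKI67, the proliferation antigen, had 2077 and 2721 in the Klf4 replicates and 878 and 945 in the Sox2 replicates (log2 difference -1.38, SE 0.13, limma adjusted p = 4.83e-07). UBE2C, a ubiquitin-conjugating enzyme of the anaphase-promoting complex, had 377 and 468 against 109 and 94.2 (log2 difference -2.04, SE 0.18, limma adjusted p = 1.45e-07). KIF20A, a cytokinesis kinesin, had 443 and 503 against 119 and 118, and ASPM, a spindle-pole protein, had 1041 and 1288 against 378 and 324. Each Klf4 library exceeded each Sox2 library in these 4 genes. Both lines lay above the GFP libraries in MKI67 (189.7, 251 and 213). The summed level of the list was 13570 and 13230 in the Sox2 replicates and 25120 and 30500 in the Klf4 replicates.

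Genes of DNA replication and nucleotide synthesis followed in part. Of 49 measured, 17 were higher in Klf4, 2 in Sox2 and 30 did not pass, with a median of -0.24. E2F1, which drives entry into S phase, had 783 and 1001 in the Klf4 replicates and 388 and 342 in the Sox2 replicates (log2 difference -1.28, SE 0.16, limma adjusted p = 6.53e-06), and TK1, thymidine kinase, had 695 and 799 against 353 and 336 (log2 difference -1.11, SE 0.18, limma adjusted p = 0.000139). The primase subunit gene PRIM2 was opposite, with 297 and 304 in Sox2 and 112 and 108 in Klf4 (log2 difference 1.44, SE 0.18, limma adjusted p = 7.63e-06), and copies of part of this gene make its value uncertain. Among D cyclins, cyclin-dependent kinase inhibitors and p53 targets, 12 of 35 were higher in Sox2, 7 in Klf4 and 16 did not pass. The G1 cyclin gene CCND1 was higher in Sox2 (21190 and 20240 against 12570 and 11470). The inhibitor genes CDKN1C (329.6 and 375 against 89.8 and 65.1) and CDKN2C (542 and 588 against 194 and 190.1) were higher in Klf4, and CDKN1A, p21, had 5003 and 5353 in Sox2 and 4296 and 4061 in Klf4, which did not pass (limma adjusted p = 0.0755).

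Genes around mitogen-activated protein kinase (MAPK) signalling nearly all differed, in both directions. Of 35 measured immediate early and feedback genes, 16 were higher in Sox2, 15 in Klf4 and 4 did not pass. The ERK phosphatase gene DUSP6 had 1089 and 1236 in the Sox2 replicates and 96 and 75.4 in the Klf4 replicates (log2 difference 3.75, SE 0.14, limma adjusted p = 1.07e-11). The early growth response gene EGR1 had 1046 and 1079 against 177 and 162 (log2 difference 2.64, SE 0.24, limma adjusted p = 2.08e-07), and EGR2 had 287 and 241 against 3.47 and 11.4 (log2 difference 5.15, SE 0.44, limma adjusted p = 1.21e-07). All 3 genes were higher in each Sox2 library than in either Klf4 library. ERK-responsive ETV4 (2.30), ETV5 (1.48) and the Sprouty inhibitor gene SPRY4 (1.42) were higher in Sox2 too. On the Klf4 side, the stress-kinase phosphatase gene DUSP1 had 9856 and 10640 in the Klf4 replicates and 1915 and 1831 in the Sox2 replicates (log2 difference -2.45, SE 0.07, limma adjusted p = 7.62e-13), JUNB, an AP-1 subunit, had 10470 and 11030 against 2398 and 2087 (log2 difference -2.26, SE 0.14, limma adjusted p = 2.47e-09), and the nuclear receptor gene NR4A3 had 249.8 and 216 against 33.7 and 46.2. EGR1 in the GFP libraries was 1963, 3540 and 3868, above both lines.

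Among 14 measured EGF receptors and ligands, 5 were higher in Sox2, 4 in Klf4 and 5 did not pass. The receptor gene ERBB3 had 379 and 268 in the Klf4 replicates and 5.61 and 8.56 in the Sox2 replicates (log2 difference -5.33, SE 0.65, limma adjusted p = 6.28e-06), ERBB4 had 2606 and 2354 against 746 and 860.5, and the ligand gene BTC, betacellulin, had 701 and 476 against 80.8 and 102 (log2 difference -2.66, SE 0.19, limma adjusted p = 1.59e-08). The ligand genes HBEGF (548 and 478 against 188 and 180.5) and NRG3 (286 and 348 against 93.7 and 107) were higher in Sox2, so the lines differed in both ligands and receptors.

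In the Notch pathway, 6 of 23 measured genes were higher in Sox2, 7 in Klf4 (4 without Klf4 replicate 1) and 10 did not pass. HEY1, a target repressor, had 204 and 165 in the Sox2 replicates and 12.7 and 10.3 in the Klf4 replicates (log2 difference 3.89, SE 0.28, limma adjusted p = 1.49e-08). LFNG, the Fringe glycosyltransferase that modifies Notch receptors, had 215 and 256 in Klf4 and 15.7 and 12.8 in Sox2 (log2 difference -3.95, SE 0.38, limma adjusted p = 3.56e-07). The receptor gene NOTCH1 (1039 and 891 against 444 and 456) was higher in Klf4. Receptors, modifiers and targets of this pathway thus differed in both directions. In the Wnt pathway, 15 of 41 were higher in Sox2, 12 in Klf4 and 14 did not pass. AXIN2, a feedback target of beta-catenin, had 344 and 496 in the Sox2 replicates and 60.1 and 76.6 in the Klf4 replicates (log2 difference 2.59, SE 0.23, limma adjusted p = 1.69e-07), and CTNNB1, beta-catenin itself, had 16390 and 15590 against 5614 and 5841 (log2 difference 1.48, SE 0.07, limma adjusted p = 6.83e-11). Both were higher in each Sox2 library. The secreted antagonist gene DKK1 was lower in Sox2, with 318 and 354 against 2177 and 2503 (log2 difference -2.80, SE 0.10, limma adjusted p = 4.23e-12), as was the ligand gene WNT9A, with 275 and 297 against 2030 and 1853 (log2 difference -2.76, SE 0.12, limma adjusted p = 3.74e-11). The ligand gene WNT5B was higher in Sox2, with 142 and 130.2 against 15 and 12.6.

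In oxidative defence, the subject of the series, more genes were higher in the Klf4 line than in the Sox2 line. Of 80 measured genes of 86 listed, 37 were higher in Klf4, 16 higher in Sox2 and 27 did not pass, with a median of -0.20. ALDH3B1, an aldehyde dehydrogenase of lipid aldehydes, had 15070 and 11090 in the Klf4 replicates and 471 and 700.4 in the Sox2 replicates (log2 difference -4.49, SE 0.18, limma adjusted p = 1.63e-11). ALDH1A3, which makes retinoic acid, had 22720 and 24450 against 4320 and 4998 (log2 difference -2.34, SE 0.09, limma adjusted p = 6.97e-12), and the secreted glutathione peroxidase gene GPX3 had 14250 and 14630 against 3858 and 3970 (log2 difference -1.88, SE 0.08, limma adjusted p = 5.96e-11). The Klf4 libraries exceeded the Sox2 libraries in all 3. HMOX1, heme oxygenase, had 83.3 and 66.3 against 14.6 and 8.56 (log2 difference -2.62, SE 0.28, limma adjusted p = 1.39e-06). Smaller differences on the Klf4 side were those of the lipid-peroxide enzyme GPX4 (-1.19), catalase CAT (-0.71), the master regulator gene NFE2L2 (-0.48) and the mitochondrial dismutase SOD2 (-0.32).

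On the Sox2 side of the same list, ME1, a cytosolic source of NADPH, had 924 and 901 in the Sox2 replicates and 138 and 120 in the Klf4 replicates (log2 difference 2.82, SE 0.16, limma adjusted p = 6.59e-10). SLC7A11, the cystine importer for glutathione synthesis, had 205 and 206 against 77.5 and 66.3 (log2 difference 1.51, SE 0.24, limma adjusted p = 8.44e-05). TKT, a transketolase of the pentose phosphate pathway, was higher in Klf4 (-1.11). GSTA4, the glutathione transferase in the series title, had 169 and 194 in the Sox2 replicates and 177 and 129 in the Klf4 replicates. The 4 libraries overlapped, and the difference of 0.26 did not pass (SE 0.19; limma adjusted p = 0.305).

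Metabolic lists also differed between the lines. Of 37 measured hypoxia and glycolysis genes, 17 were higher in Klf4, 10 in Sox2 (6 without Sox2 replicate 2) and 10 did not pass. Beside CA9, the Klf4 side held glycolytic enzyme genes LDHA (7279 and 6880 against 2850 and 3871) and ALDOA (1253 and 1242 against 491 and 619.9) and the hypoxia-inducible factor gene EPAS1 (5429 and 5613 against 1945 and 1958). The vasodilator peptide gene ADM was opposite, with 905 and 998 in the Sox2 replicates and 116 and 146 in the Klf4 replicates (log2 difference 2.86, SE 0.13, limma adjusted p = 9.48e-11), and HIF1A was higher in Sox2 (0.72). Of 37 measured genes of ATF4 and amino acid supply, 13 were higher in Sox2 (8 without Sox2 replicate 1), 10 in Klf4 and 14 did not pass. The stress-induced inhibitor of growth signalling DDIT4 had 2508 and 2147 in Klf4 and 135 and 149.8 in Sox2 (log2 difference -4.02, SE 0.10, limma adjusted p = 1.38e-13), and PSAT1, of serine synthesis, had 1447 and 1211 in Sox2 and 269.5 and 352 in Klf4 (log2 difference 2.10, SE 0.14, limma adjusted p = 6.19e-09). Of 27 cholesterol synthesis genes, 12 were higher in Sox2, 1 in Klf4 and 14 did not pass. STARD4, a cholesterol transfer protein, had 810.1 and 796 in Sox2 and 370.1 and 429.6 in Klf4 (log2 difference 1.01, SE 0.10, limma adjusted p = 8.31e-07). Without Klf4 replicate 1 the Sox2-side count of this list was 7.

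Cytokine genes and interferon-stimulated genes were measured as well. Of 30 measured chemokines, interleukins and receptors, 13 were higher in Klf4, 7 in Sox2 and 10 did not pass, and without Klf4 replicate 1 the Klf4-side count was 7. Beside IL7R, the monocyte chemokine gene CCL2 was higher in Sox2, with 707 and 522 against 91.4 and 146 (log2 difference 2.38, SE 0.37, limma adjusted p = 8.36e-05). The interleukin-6 receptor gene IL6R had 84.4 and 72 in Klf4 and 1.12 and 4.28 in Sox2 (log2 difference -4.56, SE 0.38, limma adjusted p = 7.19e-08), and IL12A had 33.5 and 38.9 against 7.85 and 10.3. Of 43 measured interferon-stimulated genes, 13 were higher in Sox2, 8 in Klf4 and 22 did not pass. EPSTI1, among the 13, met the minimum only through the Sox2 libraries. IFI6, a mitochondrial interferon-induced protein, had 1177 and 1524 in Sox2 and 306 and 192 in Klf4 (log2 difference 2.46, SE 0.21, limma adjusted p = 1.18e-07), and TRIM22, an antiviral ubiquitin ligase, had 6618 and 7950 against 1856 and 1467 (log2 difference 2.13, SE 0.11, limma adjusted p = 2.27e-10). IRF1, a regulator of the response, was opposite, with 429 and 458 against 138 and 126 (log2 difference -1.74, SE 0.12, limma adjusted p = 8.95e-09). This list depended on single libraries. Its Sox2-side count was 5 without Sox2 replicate 2, 8 without Klf4 replicate 1 and 7 without Klf4 replicate 2. Its Klf4-side count was 5 without Sox2 replicate 1 and 14 without Sox2 replicate 2, and IFI44L (15.7 and 73.6 in Sox2 and 8.1 and 4.57 in Klf4) did not pass without Sox2 replicate 2.

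Markers of other cell types were counted in the same way. Of 27 immune, endothelial and erythroid markers, 7 were above the minimum, 1 of them higher in Sox2 and 1 in Klf4. Their summed level was 780 and 993 in the Sox2 replicates and 999 and 914 in the Klf4 replicates, so the lines overlapped. CSF1R, the macrophage growth factor receptor, had 288 and 163 in Klf4 and 48.2 and 66.8 in Sox2 (log2 difference -1.92, SE 0.34, limma adjusted p = 0.000274), and the endothelial gene PECAM1 had 12.3 and 17.1 in Sox2 and 0 in both Klf4 libraries, a call lost without any 1 of the 4 libraries (limma adjusted p from 0.0775 to 0.12). The defining markers CD3E, MS4A1, CDH5 and HBB had at most 1 read in any of the 4 libraries. Of 18 Schwann, melanocyte and photoreceptor markers, 11 were measured, with 2 higher in Klf4, 1 in Sox2 (0 without Sox2 replicate 1 or Klf4 replicate 1) and 8 that did not pass. The myelin protein gene PMP22 had 2970 and 2691 in Klf4 and 868 and 1016 in Sox2 (log2 difference -1.59, SE 0.09, limma adjusted p = 4.78e-10). Another myelin gene, MBP, had 2321 and 2078 in Klf4 and 1539 and 1575 in Sox2 (log2 difference -0.50, SE 0.09, limma adjusted p = 0.00031). The summed level of this list was 5693 and 5128 in the Klf4 replicates and 2782 and 3069 in the Sox2 replicates, and its part in the other results was not tested.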

How the data were processed

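Polyadenylated RNA was sequenced from 11 libraries, and groups were taken from the sample titles. The deposited table gives a signal per feature, the authors' read counts divided by 1 factor per library (from the values: over all 4 compared libraries, 100% of values up to 200 were whole multiples of 1 read within 0.0061). STAR 2.7.1a, featureCounts 1.6.2 and human and mouse builds (GRCh38 and GRCm38) are named in the submitters' processing notes. The use of strand and the handling of reads shared by gene copies are not given in the sources used here, so genes with near-identical copies or an overlapping antisense gene are uncertain.

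The test was limma 3.58.1 (R 4.3.3; lmFit, eBayes with trend, two-sided) on log2(value + 1), a scale that shrinks differences between low values, with 1 mean per group over 11 libraries (6 residual and 9.21 prior degrees of freedom) and Benjamini-Hochberg adjustment over 18828 genes. Genes needed a value of 10 in at least 2 libraries. Where a line had at most 3 reads in each library, the fold is a minimum, taken with 3 reads in that line. Recovered reads were used for edgeR 4.0.16 (quasi-likelihood) and DESeq2 1.42.0 as alternatives. The other alternatives were TMM scaling, pseudocounts of 0.5 and 5, a filter at a mean CPM of 1 or no filter, a fit to the 4 compared libraries alone, a replicate block, and leaving out libraries. Replicates of the same line differed by more than sampling noise (mean chi-square per gene 4.19 in Sox2 and 5.06 in Klf4), so each library counted as 1 sample. In simulated data, 200 genes above a set read level were changed per run, and all others were equal between the lines. The fit recovered 49%, 79.5% and 94% of the 200 at 1.5-fold, 2-fold and 4-fold. The runs tested 18155, 18164 and 18197 genes, and 7.55%, 5.36% and 6% of calls were false. Far more genes were called in the real data, so these shares need not carry over.

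The comparison and the 31 gene lists (1173 genes, 948 of them tested) were chosen with earlier results of these data known, so list counts are descriptions. Genes named are SOX2, KLF4 and POU5F1, the 12 largest differences on either side (adjusted p under 0.05, mean of at least 100 in the higher line, libraries not overlapping), up to 6 members per list with the largest difference (mean of at least 20), and members that define a list or its exceptions, chosen after their values were seen. Some genes that meet this rule are not reported here. Promoter sequence is from RefSeq (GRCh38.p14).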

Additional observations from a re-analysis of the deposited data

How the results depend on the processing

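Across the 15 alternatives no gene called in both fits changed direction. The number of genes that differed was 6349 to 8202 against 7673 in settings that kept the 4 compared libraries, and 6006 to 6438 when 1 of them was left out. Without 1 library, genes higher in Sox2 were 2918 to 3240 and genes higher in Klf4 3010 to 3219, the lone library being assumed to vary like the other groups. edgeR on recovered reads called 7426 genes and DESeq2 6602, of which 7340 and 6563 were among the 7673. Without GFP replicate 1 and OSK replicate 1, which stand apart in features detected, 8202 genes passed. Replicate numbers are shared between the groups, but the labels give them no common source, and same-numbered deviations correlated at -0.04 over 18828 genes and at -0.23 over the 11052 with a mean of at least 100. With the replicate block the count was 7381 (all libraries) or 6349 (4 libraries). Of 231 genes with a call that meet the naming rule or stand in the text with a value, 211 kept direction and call in every alternative that tested them. The other 20 lost the call in at least 1: ALDH1L2, CDH1, CHRNA3, CMPK2, HES7, IFI44L, IL1B, IL32, ITGA10, ITGB7, LIN28A, LIN28B, MX1, PECAM1, POU5F1, ROM1, SOX10, TDGF1, TRIM71 and WNT10B. Of 62 list counts, 12 moved by over 1.5 times somewhere. Leaving out 1 library in turn gave 2 to 7 pluripotency genes, 4 to 7 Notch genes, 7 to 10 chemokines and interleukins and 5 to 14 interferon genes higher in Klf4. On the Sox2 side it gave 3 to 5 eye field factors, 5 to 11 interferon genes, 7 to 10 cholesterol genes, 8 to 10 ATF4 genes, 6 to 11 hypoxia genes, and 0 to 1 both of other-cell markers and of Schwann, melanocyte and photoreceptor markers. With only the 4 compared libraries, and in those 4 with the block, pluripotency genes higher in Klf4 were 3, other-cell markers higher in Klf4 2 and Schwann, melanocyte and photoreceptor markers higher in Sox2 0 (also 0 with DESeq2). Without the filter, interferon genes higher in Sox2 were 8 and other-cell markers higher in Sox2 0, and with a mean CPM of at least 1, eye field factors higher in Sox2 were 3 and other-cell markers 0. With 2 libraries per line, simulated 1.5-fold changes were recovered in 49% of the 200 genes changed, so small differences can be missed.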

Other observations

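Axon guidance genes differed in both directions. Of 61 measured axon guidance genes, 21 were higher in the Klf4 line, 14 in the Sox2 line and 26 did not pass, with a median log2 difference of -0.29 against -0.02 over all genes tested. SEMA3B, a secreted semaphorin, had 72740 and 72710 normalised counts in the Klf4 replicates and 1598 and 1515 in the Sox2 replicates (log2 difference -5.55, SE 0.08, limma adjusted p = 8.46e-16). UNC5B, a netrin receptor, had 21040 and 19520 against 341 and 598 (log2 difference -5.48, SE 0.21, limma adjusted p = 1.16e-11). NTNG1, a membrane-anchored netrin, had 490.4 and 455 against 22.4 and 17.1 (log2 difference -4.52, SE 0.35, limma adjusted p = 2.9e-08). Every Klf4 library exceeded every Sox2 library in these 3 genes. NRP2, a semaphorin co-receptor, was opposite, with 954 and 743 in the Sox2 replicates and 44 and 68.6 in the Klf4 replicates (log2 difference 3.91, SE 0.24, limma adjusted p = 2.45e-09).

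Neural genes were few and mixed. Of 39 listed neural progenitor and neuronal genes, 19 were measured, with 4 higher in Sox2, 6 in Klf4 and 9 that did not pass. POU3F2, a neural partner of SOX2, had 129 and 123 in the Sox2 replicates and 30.1 and 24 in the Klf4 replicates (log2 difference 2.19, SE 0.23, limma adjusted p = 1.09e-06), and MAP2, a dendritic microtubule protein, had 5049 and 4964 against 1205 and 1433 (log2 difference 1.93, SE 0.10, limma adjusted p = 3.9e-10). The adhesion gene L1CAM had 114 and 67.4 in Klf4 and 8.98 and 5.14 in Sox2 (log2 difference -3.50, SE 0.63, limma adjusted p = 0.000281), and the synaptic vesicle gene SYT1 had 1759 and 1427 against 616 and 624 (log2 difference -1.35, SE 0.13, limma adjusted p = 5.67e-07).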
